A study of Homo sapiens with 6 samples.

Results

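The insulin and insulin-like growth factor (IGF) receptors, their substrates and the IGF-binding proteins were described across 6 human prostate cancer cell lines, each with 1 RNA-seq library. The 10 genes were taken by name from the deposited tables: the receptors IGF1R, INSR and IGF2R, the substrates IRS1 and IRS2, and the binding proteins IGFBP2, IGFBP3, IGFBP4, IGFBP5 and IGFBP6. All 10 were found, each as 1 entry, among 47032 gene symbols. LnCaP, VCaP and LAPC4 are labelled castration sensitive. They were grown with 10% fetal bovine serum, VCaP in DMEM and the others in RPMI. The castration resistant lines by label are LnCaP-abl, VCaP-CR and LAPC4-CR, which carry the names of those lines. All 3 grew in RPMI with 10% charcoal-stripped serum, from which steroids are largely removed, and the supplement B27. No cells received any further treatment.

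B27 contains insulin, and the sensitive lines were grown without it as far as the labels say. Resistance, stripped serum and supplement therefore changed together in every pair and cannot be told apart, and in the VCaP pair the base medium changed as well. A change in every cell and a change in a fraction of the cells cannot be told apart in such bulk libraries either.

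IGF1R and INSR are related tyrosine kinases that respond to IGFs and insulin, and half-receptors of both kinds can join into hybrids. Active receptors phosphorylate the docking proteins IRS1 and IRS2, which recruit PI3 kinase and so switch on AKT. IGF2R has no kinase; it removes IGF2 from the cell surface and carries enzymes tagged with mannose 6-phosphate to the lysosome. The binding proteins are secreted, hold IGFs outside the cell and can either keep them from the receptor or prolong their supply. In the prostate this system has long been studied as a growth and survival signal that acts beside the androgen receptor.

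Total counts ran from 8661337 in LnCaP to 22433655 in LAPC4-CR, and the resistant library was the deeper one of each pair. Levels are given as scaled FPKM, the deposited FPKM (fragments counted per gene length and per library size) divided by a factor per library (0.863 to 1.08), which allows genes to be compared per length. A change is the log2 ratio of resistant to sensitive library, computed on counts scaled in the same way with a pseudocount of 5. Intervals are exact 95% intervals for counting error only. Within a line there was no replicate, so a change inside a pair has no test, and 2-fold is used as a mark of size. The 7 luminal epithelial marker genes were at 1 scaled FPKM or more in every library, with sums between 295 and 945. The 3 basal markers summed to at most 2.28, the 4 matched of 5 endothelial and blood cell markers to at most 2.96, and the 8 fibroblast and muscle markers to at most 7.01 outside VCaP-CR. VCaP-CR had 52.1, of which LUM, the gene of the matrix proteoglycan lumican, made up 49.8. No marker was at 0 counts in any library. No member passed 2-fold in the VCaP pair, and the part of LUM-bearing cells in the values of VCaP-CR was not tested.

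The members differed in pattern. INSR hardly differed among the libraries. IGF1R, IRS2 and IGFBP2 were highest in both VCaP libraries, IGF2R in both LnCaP libraries, and IRS1 stood apart only in LAPC4. Outside the VCaP lineage, IRS2 was lower in both resistant libraries than in both parents. IGFBP3 and IGFBP5 had, in at least 1 pair, a resistant library more than 10-fold above its parent. IGFBP4 and IGFBP6 were near the bottom of the measured range everywhere. The ratio of the highest to the lowest library was 478 for IGFBP5, 107 for IGFBP3, 52.9 for IGF1R and 47.3 for IRS2, against 5.64 for IGF2R, 4.78 for IGFBP2, 3.05 for IRS1 and 1.20 for INSR.

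**Figure D1:**
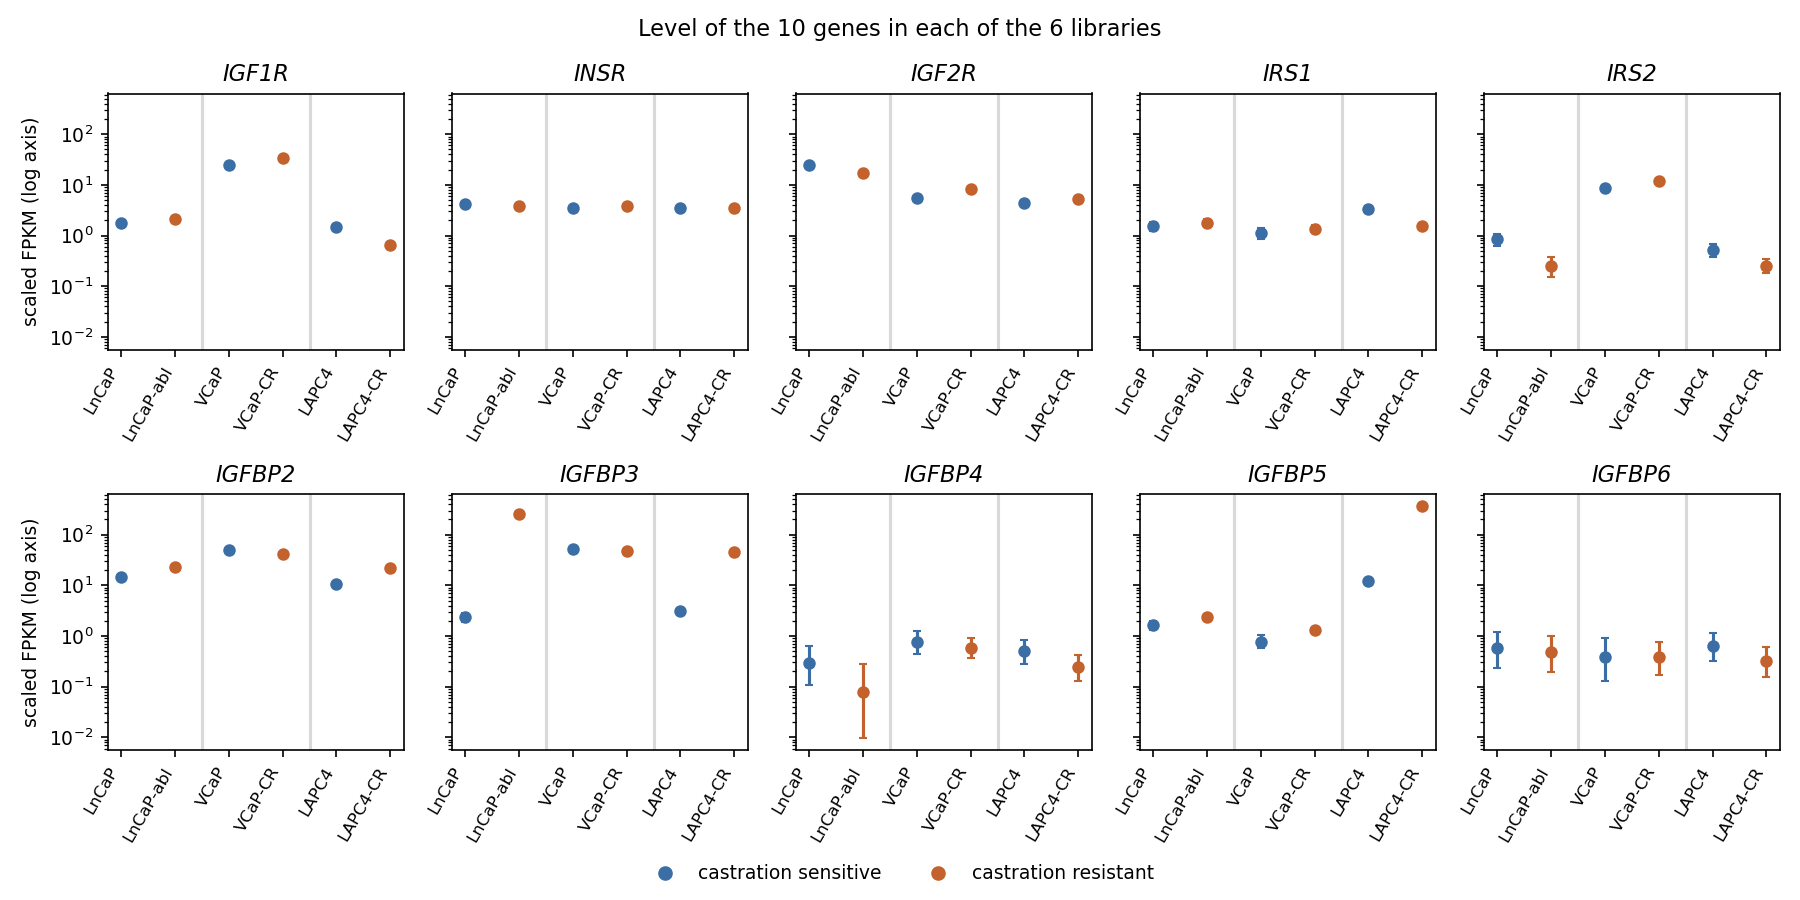
Scaled FPKM (log axis) of each of the 10 genes in the 6 libraries; points are single libraries, blue for castration sensitive and orange for resistant, and bars are 95% counting intervals. INSR stays between 3.49 and 4.21, while IGFBP5 reaches 372 in LAPC4-CR and IGFBP3 reaches 253 in LnCaP-abl.

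INSR (ENSG00000171105), the insulin receptor, lies on chromosome 19 from 7063266 to 7245011 in hg18, the build named in the submitters' processing notes. LnCaP held 4.21 scaled FPKM of it and LnCaP-abl 3.88, VCaP held 3.49 and VCaP-CR 3.86, and LAPC4 held 3.49 beside 3.57 for LAPC4-CR. Every neighbouring pair of libraries in that order of levels had overlapping counting intervals. The log2 changes were small, at -0.12 for LnCaP-abl, 0.14 for VCaP-CR, then 0.03 for LAPC4-CR, which became -0.18 when scaled to protein-coding totals. The resistant libraries thus overlapped the sensitive ones in the level of this mRNA. Any effect of insulin in the medium on it was not tested. The tables give 1 value per gene, so the short and the long splice form of the receptor were not distinguished.

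IGF1R (ENSG00000140443, chromosome 15, 97009723 to 97325282 in hg18), the main receptor for IGF1 and IGF2, was high only in the VCaP lineage among these 6 libraries. It stood at 24.6 scaled FPKM in VCaP on 2894 counts, while VCaP-CR had 33.9 on 6464 counts. The other lineages were low: LnCaP had 1.79, LnCaP-abl 2.15, LAPC4 1.44 and LAPC4-CR 0.640. Both VCaP libraries lay above all the others, and the LnCaP interval overlapped those of LnCaP-abl and LAPC4. Within pairs the differences were smaller than between the VCaP libraries and the others. LAPC4-CR had 0.446 times the level of LAPC4 (interval 0.365 to 0.544), a log2 change of -1.13. VCaP-CR had 1.38 times the level of VCaP (1.32 to 1.44), and LnCaP-abl 1.20 times that of LnCaP (1.00 to 1.45).

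Because FPKM is per length, the 2 tyrosine kinase receptors can be set beside each other. IGF1R mRNA was 7.04 times INSR mRNA in VCaP (interval 6.28 to 7.92) and 8.77 times in VCaP-CR (8.06 to 9.57). In the other 4 libraries INSR was the higher one. There the ratio of IGF1R to INSR was 0.425 for LnCaP, 0.554 for LnCaP-abl, 0.411 for LAPC4 and 0.180 for LAPC4-CR (0.152 to 0.211). The LAPC4-CR interval did not overlap that of LAPC4 (0.348 to 0.484).

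IGF2R (ENSG00000197081, chromosome 6, 160310121 to 160454529) ordered the lineages differently. LnCaP had 24.4 scaled FPKM and LnCaP-abl 17.4, whereas VCaP had 5.45, VCaP-CR 8.37, LAPC4 4.32 and LAPC4-CR 5.15. Both LnCaP libraries were above the other 4, and only VCaP and LAPC4-CR had overlapping intervals among neighbours. LnCaP-abl was below its parent by a log2 change of -0.49, and VCaP-CR and LAPC4-CR were above theirs by 0.61 and 0.25. No pair passed 2-fold. A pseudogene entry that overlaps the locus held at most 26 counts in a library, against 541 to 2275 for IGF2R itself.

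The substrates differed from each other. IRS1 (ENSG00000169047, chromosome 2, 227308001 to 227372719) was low, at 1.52 scaled FPKM for LnCaP, 1.74 for LnCaP-abl, 1.11 for VCaP, 1.34 for VCaP-CR, 3.39 for LAPC4 and 1.54 for LAPC4-CR. Only LAPC4 stood apart, and the intervals of all other neighbours in the order overlapped. LAPC4-CR had 0.454 times its parent's level (interval 0.380 to 0.542), a log2 change of -1.11. LnCaP-abl and VCaP-CR had changes of 0.19 and 0.26, the former turning to -0.03 when scaled to protein-coding totals.

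IRS2 (ENSG00000185950, chromosome 13, 109204185 to 109236916) had its high values in the VCaP lineage, as IGF1R did. VCaP had 8.60 scaled FPKM and VCaP-CR 11.7, while LnCaP had 0.838, LnCaP-abl 0.248, LAPC4 0.517 and LAPC4-CR 0.254. LnCaP-abl, with 20 counts, had 0.296 times the level of LnCaP (interval 0.168 to 0.502), and LAPC4-CR 0.491 times that of LAPC4 (0.317 to 0.756). The log2 changes were -1.57 and -0.90. VCaP-CR went the other way with 1.37 times its parent's level (1.24 to 1.51) and a log2 change of 0.45. IRS2 mRNA was 7.74 times IRS1 mRNA in VCaP and 8.75 times in VCaP-CR. In the other lineages IRS1 was the higher substrate, with an IRS2 to IRS1 ratio of 0.550 for LnCaP, 0.142 for LnCaP-abl, 0.153 for LAPC4 and 0.165 for LAPC4-CR.

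**Figure D2:**
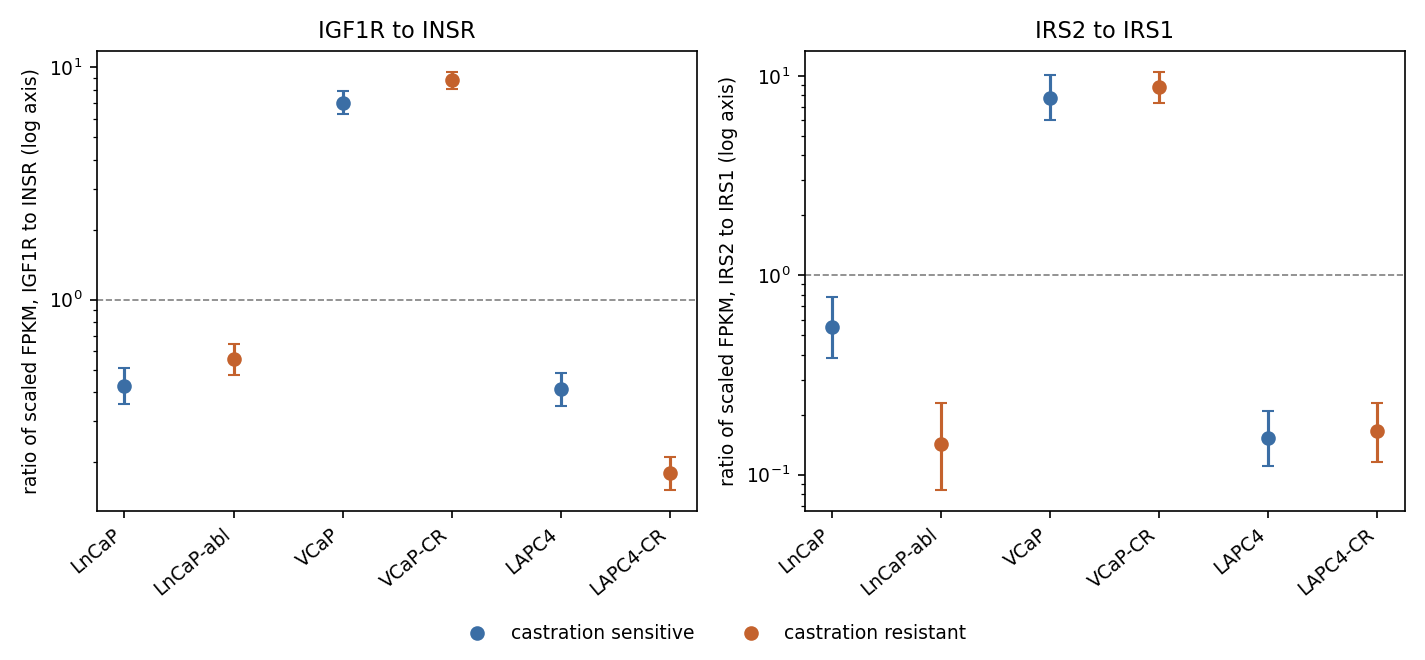
Ratio of scaled FPKM of IGF1R to INSR (left) and of IRS2 to IRS1 (right) in each library on log axes; bars are 95% counting intervals and the dashed line marks equal levels. Both VCaP libraries lie above the line in both panels, at 7.04 and 8.77 on the left and 7.74 and 8.75 on the right, and the other 4 libraries lie below it.

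The sequences just before the starts of IGF1R and IRS2 are shown because these 2 genes had the widest range among the receptors and substrates. They are the 250 bases upstream of the RefSeq start on GRCh38.p14, a later build than that of the tables, at chr15:98648289-98648538 on the plus strand and chr13:109786584-109786833 on the minus strand. Capitals mark GC boxes, the letters GGGCGG on either strand, and matches may overlap.
IGF1R: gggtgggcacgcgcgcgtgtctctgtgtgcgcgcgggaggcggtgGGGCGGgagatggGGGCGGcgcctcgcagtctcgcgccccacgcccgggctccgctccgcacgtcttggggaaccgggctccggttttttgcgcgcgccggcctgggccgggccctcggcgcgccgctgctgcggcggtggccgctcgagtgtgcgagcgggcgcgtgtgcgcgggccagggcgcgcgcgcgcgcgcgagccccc
IRS2: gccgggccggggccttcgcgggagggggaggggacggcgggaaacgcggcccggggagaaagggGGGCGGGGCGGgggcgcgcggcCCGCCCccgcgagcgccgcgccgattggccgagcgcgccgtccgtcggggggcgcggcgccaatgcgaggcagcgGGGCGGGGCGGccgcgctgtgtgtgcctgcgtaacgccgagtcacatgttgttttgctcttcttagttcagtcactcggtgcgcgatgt
IGF1R had 2 GC boxes and IRS2 had 5, and 42.6% of the 35116 RefSeq windows of this length held at least 1. Guanine and cytosine made up 81.2% of the IGF1R window, more than in 97.7% of all windows, and 76.4% of the IRS2 window, more than in 91.9%. The FOXO core TGTTTAC, the TATA box TATAAA and the steroid receptor half-site TGTTCT, searched on both strands, had no match in either window; 2.98%, 10.7% and 12.4% of all windows held them. These matches are descriptions of letters only.

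Among the binding proteins, IGFBP3 in LnCaP-abl and LAPC4-CR and IGFBP5 in LAPC4-CR differed far more from the parent than any other member did in those pairs. IGFBP3 (ENSG00000146674, chromosome 7, 45918375 to 45927998 in hg18), the main carrier of IGFs in blood, had 2.36 scaled FPKM in LnCaP on 101 counts and 253 in LnCaP-abl on 13310 counts. LAPC4 had 3.06 and LAPC4-CR 46.3, whereas VCaP and VCaP-CR had 51.9 and 47.4. LnCaP and LAPC4 were thus low, and the VCaP libraries and LAPC4-CR were close to one another at 46.3 to 51.9. LnCaP-abl stood above them all. The level was 107 times that of the parent in LnCaP-abl (interval 88.3 to 132) and 15.2 times in LAPC4-CR (13.1 to 17.6), with log2 changes of 6.70 and 3.89. In VCaP-CR it was 0.913 times the parent's level (0.866 to 0.962). Among the 17397 genes tested, ordered by their change upward, IGFBP3 was at rank 6 in the LnCaP pair and at rank 31 in the LAPC4 pair. By scaled FPKM, IGFBP3 was at rank 65 of 19947 protein-coding symbols in LnCaP-abl and at rank 8557 in LnCaP.

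IGFBP5 (ENSG00000115461, chromosome 2, 217245073 to 217268493), a binding protein that also attaches to extracellular matrix, belonged to the LAPC4 lineage. Its level was 12.1 scaled FPKM in LAPC4 on 1032 counts and 372 in LAPC4-CR on 58035 counts. Elsewhere it was low: LnCaP had 1.62, LnCaP-abl 2.35, VCaP 0.779 and VCaP-CR 1.29. Both LAPC4 libraries were above all others, and each resistant library was above its parent. LAPC4-CR had 30.8 times the level of LAPC4 (interval 29.0 to 32.8), a log2 change of 4.94 and rank 9 in the same order. The ratio was 1.45 in the LnCaP pair (1.12 to 1.87) and 1.65 in the VCaP pair (1.19 to 2.34). In LAPC4-CR the gene was at rank 40 of the protein-coding symbols, and in LAPC4 at rank 2866.

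The upstream sequences of these 2 binding proteins are shown because they had the widest range of all members. They lie on GRCh38.p14 at chr7:45921273-45921522 for IGFBP3 and chr2:216695550-216695799 for IGFBP5, both on the minus strand and ending at the base before the RefSeq start. Capitals again mark GC boxes.
IGFBP3: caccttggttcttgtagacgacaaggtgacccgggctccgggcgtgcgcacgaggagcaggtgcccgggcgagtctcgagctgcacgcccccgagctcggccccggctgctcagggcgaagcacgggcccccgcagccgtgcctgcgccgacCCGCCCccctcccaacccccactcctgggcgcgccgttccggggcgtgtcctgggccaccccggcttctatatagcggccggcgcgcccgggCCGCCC
IGFBP5: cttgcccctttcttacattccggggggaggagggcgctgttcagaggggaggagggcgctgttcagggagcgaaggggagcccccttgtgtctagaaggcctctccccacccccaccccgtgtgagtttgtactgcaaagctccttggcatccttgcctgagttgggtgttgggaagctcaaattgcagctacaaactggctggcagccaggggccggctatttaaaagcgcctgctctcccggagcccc
IGFBP3 had 2 GC boxes and IGFBP5 had 0, and the TATA box, FOXO core and steroid receptor half-site named above had no match in either. The IGFBP3 window held 76.0% guanine and cytosine, more than in 91.3% of RefSeq windows. In the IGFBP5 window it was 61.2%, more than in 57.0%, and the median over all windows was 58.0%. Of all 10 members, only IGFBP6 had the exact letters TGTTTAC in a window, and only IGFBP4 the exact letters TATAAA, on either strand. Variants of these letters were not searched for.

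IGFBP2 (ENSG00000115457, chromosome 2, 217205796 to 217237404), a binding protein that also carries an integrin recognition motif, was above 10 scaled FPKM in every library. LnCaP had 14.9 and LnCaP-abl 22.7, VCaP had 50.0 and VCaP-CR 42.2, and LAPC4 had 10.5 beside 22.5 for LAPC4-CR. The VCaP lineage was highest, and LnCaP-abl and LAPC4-CR had overlapping intervals. LAPC4-CR had 2.15 times its parent's level (interval 1.98 to 2.35), LnCaP-abl 1.52 times (1.39 to 1.68) and VCaP-CR 0.844 times (0.801 to 0.891). Scaled to protein-coding totals, the log2 change for LAPC4-CR was 0.89, within 2-fold. The gene is a neighbour of IGFBP5, with 7668 bases between their entries in the deposited coordinates. In the LAPC4 pair the log2 change was 1.10 for IGFBP2 and 4.94 for IGFBP5. IGFBP1, the neighbour of IGFBP3 at 18582 bases, had between 3 and 11 counts in the 6 libraries.

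IGFBP4 and IGFBP6, the latter with a preference for IGF2, had too few reads for a comparison. IGFBP4 (ENSG00000141753, chromosome 17, 35853228 to 35867509) had 6 counts for LnCaP, 2 for LnCaP-abl, 17 for VCaP, 21 for VCaP-CR, 15 for LAPC4 and 13 for LAPC4-CR. Its level was at most 0.772 scaled FPKM. IGFBP6 (ENSG00000167779, chromosome 12, 51777487 to 51782396) had 5 to 11 counts and at most 0.648 scaled FPKM. The ratio of resistant to sensitive level had an interval that included 1 in all 3 pairs for both genes, for example 0.0268 to 1.52 for IGFBP4 in the LnCaP pair. A difference in these 2 genes was not detectable at this depth.

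Summed over the 5 binding proteins, LnCaP had 19.8 scaled FPKM and LnCaP-abl 279, which is 14.1 times as much, and LAPC4 had 26.7 and LAPC4-CR 441, which is 16.5 times as much. In the VCaP pair the sum was 104 in the parent and 91.9 in VCaP-CR. As a share of all counts, the same genes took 0.0101% for LnCaP, 0.135% for LnCaP-abl, 0.0154% for LAPC4 and 0.293% for LAPC4-CR. Both resistant sums were high, but their makeup differed. IGFBP2 made up 75.5% of the sum in LnCaP and 8.15% in LnCaP-abl, where IGFBP3 made up 90.8%. In LAPC4, IGFBP5 held 45.2% and IGFBP2 39.1%, and in LAPC4-CR IGFBP5 held 84.3%. VCaP and VCaP-CR were divided between IGFBP3, at 50.0% and 51.6%, and IGFBP2, at 48.1% and 45.9%. In VCaP the ratio of these 2 had an interval of 0.981 to 1.10, so neither was shown to lead there. Shares by level depend on the gene lengths in the tables, which were 4767 bases for IGFBP2, 4565 for IGFBP3 and 6442 for IGFBP5.

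**Figure D3:**
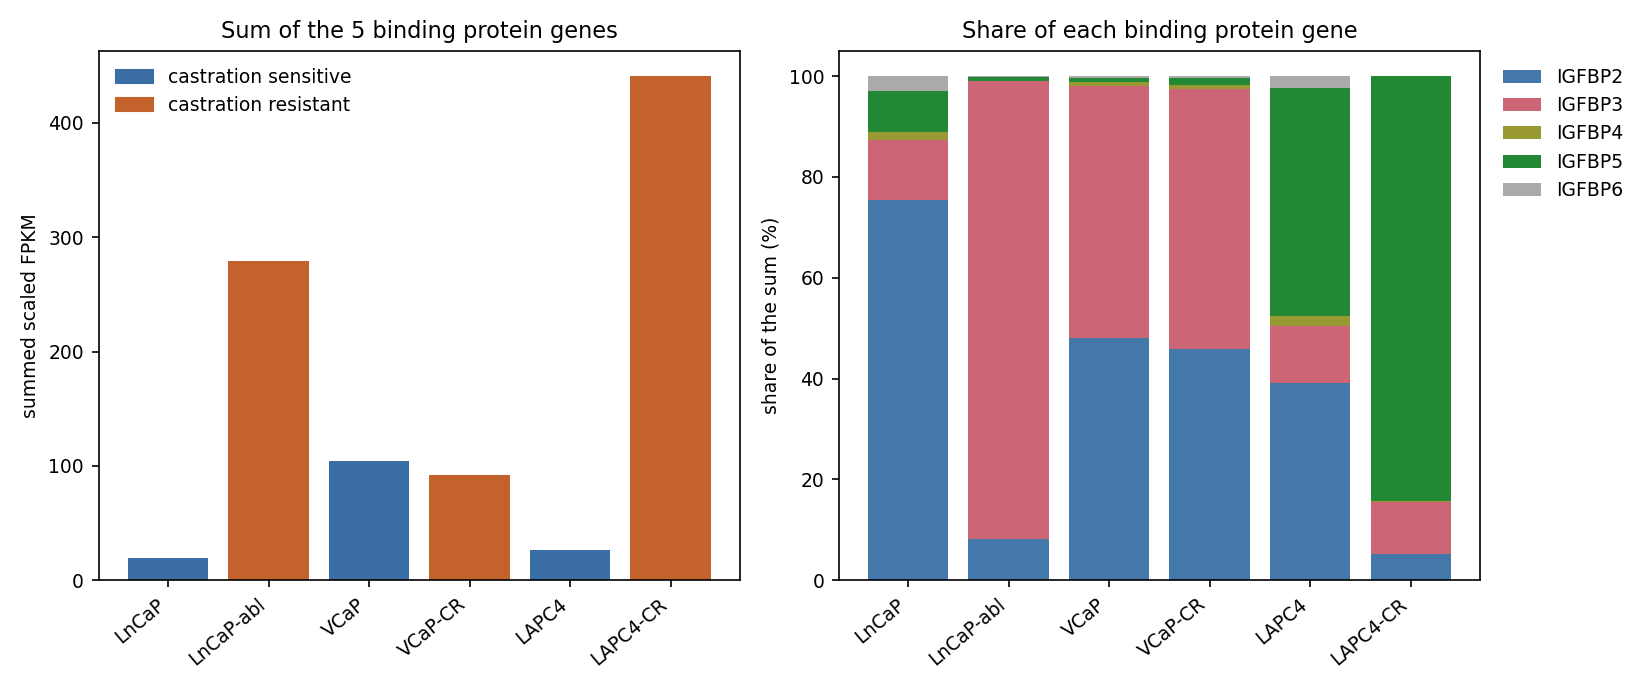
Summed scaled FPKM of the 5 binding protein genes per library (left, bars from 0, blue sensitive and orange resistant) and the share of each gene in that sum (right, %). The sum is 279 in LnCaP-abl, mostly IGFBP3, and 441 in LAPC4-CR, mostly IGFBP5, while both VCaP libraries hold IGFBP2 and IGFBP3 in nearly equal shares.

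Whether any member changed in common between sensitive and resistant lines was asked over all 3 pairs. In edgeR's quasi-likelihood test with the parental line as a block, 0% of the 17397 genes passed an adjusted p of 5% upward and 0% downward, although 862 and 695 had an unadjusted p under 0.05. DESeq2 called 0.535% higher and 0.368% lower. Of the 10 members, 8 had the mean of 1 scaled FPKM needed to be tested, and IGFBP4 and IGFBP6 did not; 0 of the 8 were called by edgeR or DESeq2. IGFBP3 averaged a log2 change of 3.66 by edgeR (SE 1.41, adjusted p 0.54), was higher in 2 of 3 pairs, and was the one member with an unadjusted p under 0.05 (0.036). For IGFBP5 the edgeR change was 1.93 (SE 0.93, adjusted p 0.58) and the level was higher in 3 of 3 pairs. DESeq2 gave adjusted p values of 0.22 for IGFBP3 and 0.21 for IGFBP5, and over the 10 alternative fits they ranged from 0.054 to 1 and from 0.18 to 1. IGFBP2 had 0.49 (SE 0.32), IRS2 -0.69 (SE 0.46), IRS1 -0.23 (SE 0.39), IGF2R 0.13 (SE 0.30), IGF1R -0.12 (SE 0.37) and INSR 0.02 (SE 0.25), with edgeR adjusted p from 0.67 to 0.99. The samples are 3 different lines, so each p-value sets the mean change against how far the lines differ in their change.

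The number of members past 2-fold differed between the pairs. In the LnCaP pair, 1 of 10 was higher (IGFBP3) and 1 lower (IRS2), where 9.21% of all tested genes were higher and 9.52% lower. In the VCaP pair it was 0 of 10 in either direction, against 3.71% and 3.07%. The LAPC4 pair had 3 higher (IGFBP2, IGFBP3 and IGFBP5) and 2 lower (IGF1R and IRS1). These were 30% and 20% of the members, against 8.65% and 8.39% of all tested genes. All of them were among the 8 tested members. Of tested protein-coding genes, 11.5% were higher and 6.25% lower in the LnCaP pair. Those shares were 3.99% and 3.24% in the VCaP pair, and 11.1% and 6.77% in the LAPC4 pair. IRS2, at 0.491 times its parent's level in the LAPC4 pair, had -0.90 with the pseudocount and so was not counted. Scaled to protein-coding totals it had -1.08, which made 2 members higher and 3 lower there. The pseudocount also kept IGFBP4 (0.271 times in the LnCaP pair, 0.475 in the LAPC4 pair) and IGFBP6 (0.498 in the LAPC4 pair) within 2-fold, on at most 15 counts a library. The count in the LnCaP pair was near the background in both directions. Taken from the LnCaP to the LAPC4 pair, the median log2 change of the 10 members was 0.04, 0.20 and -0.30. With IGFBP4 and IGFBP6 left out, the median of the 8 tested members was 0.22, 0.35 and 0.14. The sign in the LAPC4 pair thus depended on those 2 genes, which had few reads. Over all tested genes the median was -0.01, -0.01 and 0.00. On the scale of log2(scaled FPKM + 1), which shrinks changes at low levels, IRS2 in the LnCaP pair had -0.56, and IGF1R and IRS1 in the LAPC4 pair had -0.57 and -0.79, so that no member passed 2-fold lower.

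**Figure D4:**
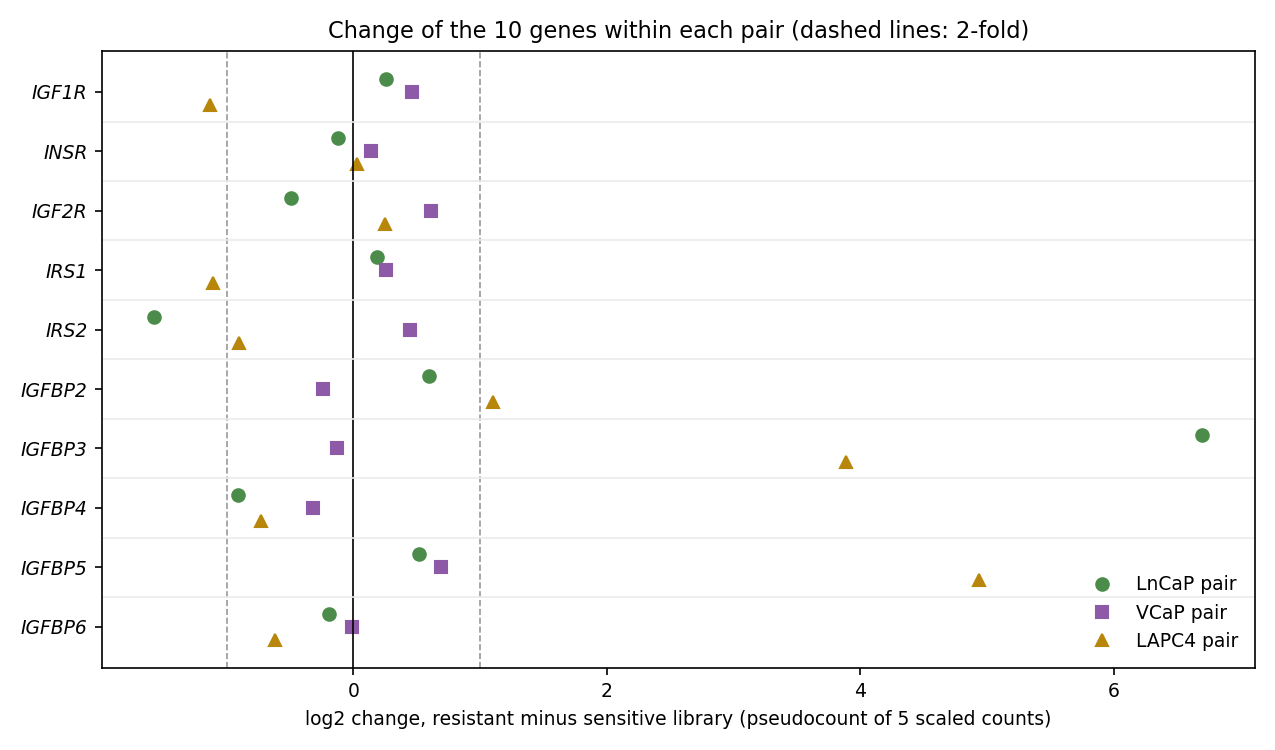
Log2 change, resistant minus sensitive library, of the 10 genes in the LnCaP (circles), VCaP (squares) and LAPC4 (triangles) pairs; dashed lines mark 2-fold. IGFBP3 is at 6.70 and 3.89 in the LnCaP and LAPC4 pairs and IGFBP5 at 4.94 in the LAPC4 pair, while all VCaP points lie within 2-fold.

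The mRNAs of the ligands were barely present. INS had 0 to 3 counts per library and IGF1 29 to 77 counts, which is 0.222 to 0.514 scaled FPKM. IGF2 was at 0.247 to 0.538 in 5 libraries and at 1.97 in VCaP-CR, where 234 counts stood against 24 in VCaP, a log2 change of 2.42. INSRR, the insulin receptor-related receptor, was at most at 0.231. IGFBP7, a related secreted protein, had 0 to 1 counts, and IGFBPL1 had 68 in VCaP, 99 in VCaP-CR and 3 to 12 elsewhere. None of the ligands or INSRR reached the mean level needed for the test.

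Another 77 genes of the pathway were listed in 6 groups with earlier results of these data known: extracellular regulators, adaptors, PI3K with AKT and mTOR, negative regulators, FOXO factors with FOXO-induced genes, and the mannose 6-phosphate pathway. With the ligands these were 81 genes, of which 66 were tested, and edgeR called 0 of them. In the LnCaP pair 12 were past 2-fold higher and 6 lower, 18.2% and 9.09%, where 11.5% and 6.25% of the tested protein-coding genes were. The VCaP pair had 3 and 3, 4.55% each, against 3.99% and 3.24%, and the LAPC4 pair 7 and 5, 10.6% and 7.58%, against 11.1% and 6.77%. In the same order of pairs, the 66 genes had a median log2 change of 0.50, 0.20 and 0.10, beside 0.15, 0.00 and 0.10 over tested protein-coding genes.

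SOCS2, a feedback inhibitor of cytokine and growth hormone signalling, was the one listed gene past 2-fold in the same direction in all 3 pairs. The share of all tested genes that met this rule is not given here. LnCaP had 1.98 scaled FPKM and LnCaP-abl 0.834, VCaP had 2.37 and VCaP-CR 1.11, and LAPC4 had 10.5 beside 0.646 for LAPC4-CR. Each resistant library was below its parent, and LAPC4 was the highest library. The log2 changes were -1.20, -1.06 and -3.92, with an edgeR adjusted p of 0.52 over the 3 pairs. TRIB3, a pseudokinase that binds AKT, had log2 changes of -0.83, -1.41 and -0.92, and INPP4B, a phosphoinositide phosphatase, had -1.86, -0.92 and -0.38, with edgeR adjusted p values of 0.52 and 0.53. Of the 11 tested negative regulators, 2 were past 2-fold lower in LnCaP-abl, 2 in VCaP-CR and 1 in LAPC4-CR, and 0 were past it higher. In the same order, 6.25%, 3.24% and 6.77% of tested protein-coding genes were lower, and 11.5%, 3.99% and 11.1% higher.

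Among the 8 tested adaptors, 3 were past 2-fold higher in LnCaP-abl and 0 in the other resistant lines, and 1 was lower in LAPC4-CR. The shares of tested protein-coding genes were 11.5% higher in LnCaP-abl, 3.99% in VCaP-CR and 11.1% in LAPC4-CR, and 6.77% lower in LAPC4-CR. GRB10, an adaptor that binds and restrains INSR and IGF1R, stood at 5.96 scaled FPKM in LnCaP and 41.4 in LnCaP-abl, a log2 change of 2.79, with 0.77 and -0.18 in the VCaP and LAPC4 pairs. GRB14, a related inhibitor of the insulin receptor, had 1.80, 0.84 and -1.19. The extracellular group held FURIN, the protease that cleaves the receptor precursors, at 2.39 in LnCaP and 13.9 in LnCaP-abl, a log2 change of 2.50. STC2, an inhibitor of the binding protein protease pappalysin, had 1.48 for VCaP-CR and -1.38 for LAPC4-CR.

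In the PI3K group of 16 tested genes, each pair had a different leading gene among the kinase's subunits. PIK3CD, a catalytic subunit, stood at 5.95 scaled FPKM in LnCaP and 17.2 in LnCaP-abl (log2 change 1.52). PIK3R1, a regulatory subunit that docks on IRS proteins, was measured at 3.70 for VCaP and 20.1 for VCaP-CR (2.43). PIK3R3, another regulatory subunit, had 21.4 in LAPC4 and 102 in LAPC4-CR (2.25). Past 2-fold there were 1 higher and 1 lower in the LnCaP pair, 1 and 0 in the VCaP pair, and 2 and 0 in the LAPC4 pair. For tested protein-coding genes the shares were 11.5% and 6.25%, 3.99% and 3.24%, and 11.1% and 6.77%.

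FOXO factors are held out of the nucleus by AKT, and INSR and IRS2 are known FOXO-induced genes. FOXO3 was higher in LnCaP-abl and VCaP-CR, with log2 changes of 1.57 and 1.03, and 0.09 in the LAPC4 pair. FOXO1 had 1.54 scaled FPKM in LnCaP and 0.285 in LnCaP-abl, a log2 change of -2.21, and its mean was too low for the test. Of the 14 tested genes in this group, 4 were higher and 1 lower in the LnCaP pair, 1 and 0 in the VCaP pair, and 5 and 2 in the LAPC4 pair, where TRIB2 had the largest change at -3.38. Of all tested protein-coding genes, 11.5% were higher and 6.25% lower in the LnCaP pair. Those shares were 3.99% and 3.24% in the VCaP pair, and 11.1% and 6.77% in the LAPC4 pair. Whether the group differed from them was not tested.

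The mannose 6-phosphate group concerns the other role of IGF2R. Of its 11 tested genes, 3 were past 2-fold higher in the LnCaP pair and 0 lower, and its median log2 change there was 0.77, while IGF2R itself had -0.49. Tested protein-coding genes in that pair were 11.5% higher and 6.25% lower, with a median of 0.15. GNPTAB, a subunit of the enzyme that makes the tag, had 4.17 scaled FPKM in LnCaP and 17.2 in LnCaP-abl (log2 change 2.03) and had 0.66 in each of the other pairs.

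**Figure D5:**
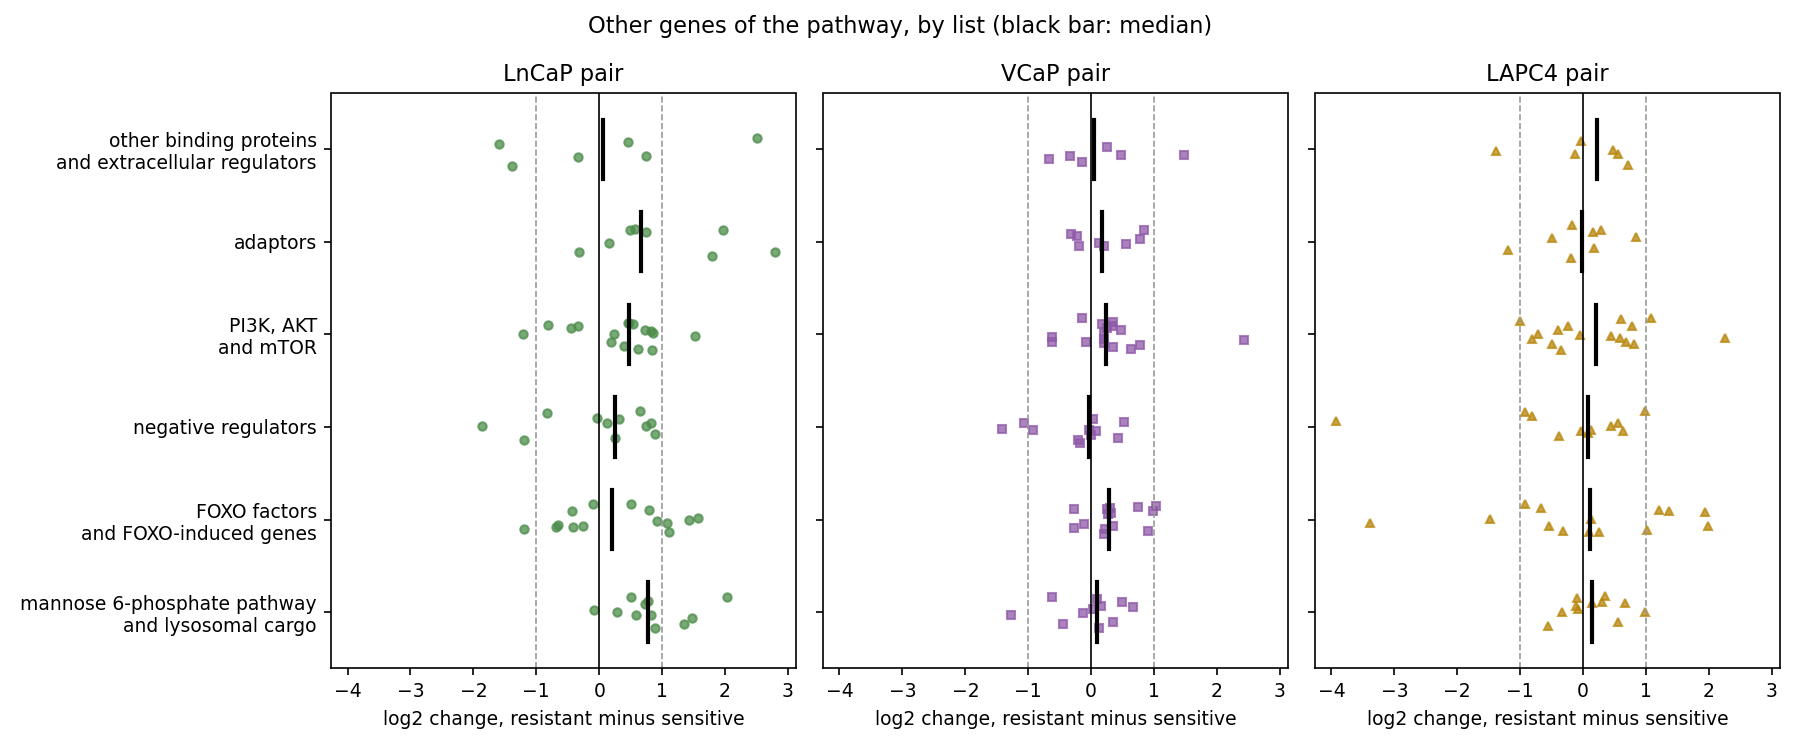
Log2 change, resistant minus sensitive library, of the 66 tested pathway genes in 6 groups, 1 panel per pair; each point is a gene, black bars are group medians, dashed lines mark 2-fold, and vertical spread within a row has no meaning. The mannose 6-phosphate median is 0.77 in the LnCaP pair, and SOCS2 is the lowest point at -3.92 in the LAPC4 pair.

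The protein-coding genes most like each wide-ranging member were found by the root mean square difference between log2(scaled FPKM + 1) profiles over the 6 libraries, each centred on its own mean. With 11343 genes and 6 libraries, of which pairs share a parent, close matches are common, and likeness is given as a description. For IRS2, TMCC3 was at 0.151. IGF1R was closest to STMN3 (0.232) and ANKRD10 (0.263), IGF2R to CALD1 (0.193) and ECHDC3 (0.195), and IGFBP2 to DPY19L3 (0.188) and HSPA9 (0.196). IGFBP3 and IGFBP5 had no match as close. For IGFBP3 the nearest were ID1 (0.912), at 122 scaled FPKM in LnCaP-abl and 119 in LAPC4-CR, and DEGS2 (1.15). For IGFBP5 they were S100A6 (0.797), at 141 in LAPC4-CR and at most 2.56 elsewhere, and CEACAM6 (0.901).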

How the data were processed

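Per the labels' protocols, RNeasy was used for the RNA of the 6 cell lines and the SOLiD Total RNA-Seq kit for the libraries. HTSeq and hg18 are named in the submitters' processing notes. Not given in the sources used here: the aligner, the annotation release, the strand setting and the handling of reads that match several places. Per the file headers, the deposited tables hold counts per gene and FPKM. For genes over 20 counts, the deposited FPKM could be rebuilt within 0.044% from count, length and the file's total. LAPC4-CR has no length column, and the lengths of the other tables were used. Starts were raised by 1 because the tables count from 0.

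Entries sharing a symbol were summed, 1433 symbols of small RNA or mitochondrial genes were left out, and FPKM was divided by median-ratio factors over 12495 genes. The 17397 genes averaging 1 scaled FPKM or more were tested on counts with edgeR 4.0.16 in R 4.3.3 (quasi-likelihood, TMM, parental line as a block, Benjamini-Hochberg adjustment over all genes, threshold 5%), tested on simulated data. DESeq2 1.42.0 and limma 3.58.1 were alternatives. Pairs come from the line names; across genes, each parent's deviation from the sensitive mean and its derivative's from the resistant mean had a correlation of 0.45 (LnCaP), 0.70 (VCaP) and 0.57 (LAPC4). Named genes are the members, for each list the gene with the largest change in each pair and those past 2-fold alike in all 3, and the 2 most similar genes of members spanning at least 2 on the log2 scale. The largest change was taken among genes with at least 1 scaled FPKM in 1 of both libraries. Some genes that this rule names are not reported here. Members and lists were chosen with earlier results of these data known. Promoter sequences are from RefSeq; 10 of 10 members matched, with 12 start sites.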

Additional observations from a re-analysis of the deposited data

Results flagged for a closer look

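The following members moved in opposite directions in different pairs, each with a counting interval of the ratio that leaves out 1. The values are differences between log2 changes. No difference was tested, because a line has a single library in each state. IGFBP3 was higher in LnCaP-abl and LAPC4-CR and slightly lower in VCaP-CR: LnCaP pair minus VCaP pair gave 6.83, and VCaP minus LAPC4 gave -4.02. IGFBP2 showed the same signs, with 0.85 for LnCaP minus VCaP and -1.34 for VCaP minus LAPC4. IRS2 had the opposite signs, lower in LnCaP-abl and LAPC4-CR and higher in VCaP-CR, with -2.02 for LnCaP minus VCaP and 1.35 for VCaP minus LAPC4. IGF1R was higher in VCaP-CR and lower in LAPC4-CR, with VCaP minus LAPC4 at 1.59. IGF2R was lower in LnCaP-abl and higher in the other resistant lines, with -1.10 for LnCaP minus VCaP and -0.74 for LnCaP minus LAPC4.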

How the results depend on the processing

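DESeq2 called 93 genes higher and 64 lower, and edgeR with no minimum level 61 and 50, where edgeR as reported called 0 and 0. The counts were also 0 and 0 without the replicate block, with RLE factors, with filterByExpr, in limma and with protein-coding genes only, the last added after the data were seen. With 1 pair left out, edgeR called between 0 and 47 genes higher and between 1 and 31 lower, the most (47 and 31) without the LAPC4 pair. The cause was not tested. No member passed 5% in any of these fits; the lowest adjusted p was 0.054, for IGFBP3 without a filter, and the edgeR change of IGFBP3 was 1.87 to 5.32 with 1 pair left out, that of IGFBP5 0.63 to 2.98. Uncalled edgeR changes that turned sign were IGF1R (0.42 without the block, 0.02 in limma, -0.45 to 0.37 with 1 pair left out), IRS2 (0.32 without the block), IGF2R (-0.14 without the block, -0.12 to 0.44), INSR (-0.07 with protein-coding genes, -0.04 to 0.09) and IRS1 (-0.48 to 0.24).

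Members past 2-fold lower in the LnCaP pair numbered 2 with a pseudocount of 1 (IGFBP4 joins IRS2) and 2 with protein-coding totals. On log2(scaled FPKM + 1) they numbered 0 there and 0 in the LAPC4 pair, a scale that shrinks low levels by construction. Scaling to protein-coding totals moved the median of all genes to -0.22 (LnCaP-abl), -0.07 (VCaP-CR) or -0.19 (LAPC4-CR, where IGFBP2 was then at 0.89 and IRS2 at -1.08, so that 2 members were higher and 3 lower). Of 180 changes of a member in a pair, 167 moved by less than their counting interval. Counted without length, IGFBP2 led the binding proteins in VCaP at 49.4%. Depth limits IGFBP4 and IGFBP6.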
